A study of Mus musculus with 9 samples.

Results

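The genes described here encode the proteins that build and dress ApoB-containing lipoproteins in the liver. They are Apob, Mttp, Apoa1, Apoa2, Apoa4, Apoa5, Apoc1, Apoc3, Apoe and Apoh, a set of 10 genes fixed by name out of 37074 gene names on the array. The 10 genes had 17 probes between them: 4 genes had 1 probe, 5 had 2 and Apoc3 had 3. A probe was tested when its signal was well above background, as the scanner software flags it, on all arrays of at least 1 group. By this rule 15 of the 17 probes were tested and each of the 10 genes had at least 1 tested probe, among 5761 genes tested in all. For 8 of the 10 genes the brightest probe was detected (well above background) on all 9 arrays, the exceptions being Mttp and Apoa4.

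Very-low-density lipoprotein (VLDL) is the particle in which hepatocytes export triglyceride. ApoB is its structural protein, present once in each particle, and the microsomal triglyceride transfer protein, whose large subunit is encoded by Mttp, loads lipid onto ApoB while it is still being translated in the endoplasmic reticulum. Poorly lipidated ApoB is degraded, so that ApoB secretion is set largely after transcription. The exchangeable apolipoproteins ApoA-I, ApoA-II, ApoA-IV, ApoA-V, ApoC-I, ApoC-III and ApoE move between particles and control lipases and receptors. ApoH, also called beta-2-glycoprotein I, is an abundant plasma glycoprotein of the liver that is found in part on lipoproteins.

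The arrays measured liver RNA of male C57BL/6N mice that had received an adeno-associated virus (AAV) by tail vein. GP73, the product of Golm1, is a Golgi membrane protein, and the study asked how a high level of it in the liver compares with feeding fat. There were 3 groups of 3 arrays each. AAV-V mice received the empty vector and AAV-GP73 mice the vector encoding mouse GP73, both on a regular diet, while AAV-V HFD mice received the empty vector and a high-fat diet. The labels' age field reads 12 months for all 9 samples, a span that the study counts from the injection into young adult mice, so the animals were older than that. The vector was described as hepatocyte-specific and was given repeatedly, so that controls also carried AAV, and the study's results and methods give the feeding time differently. Nothing in the labels or methods ties each sample to an animal of its own or excludes pooling, so p-values here measure the spread between samples.

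The 3 groups differed in overall brightness. As few as 10.2% of probes were well above background on an AAV-V array, against 16.0% to 18.4% on AAV-GP73 and 13.8% to 16.7% on AAV-V HFD arrays. For the 2667 probes detected on all 9 arrays, median processed signals averaged 35.8 ± 2.76 (SD, n = 3) with AAV-V, 113 ± 14.1 with AAV-GP73 and 105 ± 25.2 with AAV-V HFD. The spike-in controls did not follow this order, with mean log2 signals of 10.73 ± 0.28, 10.58 ± 0.04 and 10.85 ± 0.20. Arrays were therefore scaled to an equal 75th percentile over these 2667 probes, and all fold changes are relative to that scale unless another is named. On it the median of all tested genes stood at 0.59 (log2) in AAV-GP73 against AAV-V, 0.37 in AAV-V HFD against AAV-V and 0.09 in AAV-GP73 against AAV-V HFD. Scaling on all probes raised these medians to 1.59, 1.32 and 0.13, and scaling on the spike-in controls to 2.28, 1.70 and 0.44. With background correction by normexp they were -0.58, -0.73 and 0.13. A change of sign under these settings can thus leave a gene on the same side of the median of all tested genes. By the barcodes in the file headers AAV-V and AAV-GP73 shared 1 slide and AAV-V HFD had the other, so diet and slide cannot be told apart. A second number in the barcode was 1 on all AAV-V arrays and 2 on all AAV-GP73 arrays. GP73 and this number cannot be told apart either, and whether it is a position on the slide was not checked. The single Golm1 probe was well above background on 0 of the 9 arrays, with signals of 1.62 to 2.06 in AAV-V and 1.51 to 1.81 in AAV-GP73, and whether the vector carries its target is not given in the sources used here. It could not serve to check the labels.

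The probes decide what each value measures, and for several of the 10 genes 2 probes gave different answers. Probe letters are shown for Apob, where a bright and a dim probe disagreed, and for 3 genes of the apolipoprotein cluster on chromosome 9. Coordinates are those of the array's design on mm9, and letters run 5′ to 3′ with none marked.
Apob, bright probe: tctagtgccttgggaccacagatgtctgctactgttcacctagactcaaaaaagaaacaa
Apob, dim probe: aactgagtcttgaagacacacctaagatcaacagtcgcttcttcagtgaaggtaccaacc
Apoa1: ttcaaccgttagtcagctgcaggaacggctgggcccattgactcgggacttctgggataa
Apoc3: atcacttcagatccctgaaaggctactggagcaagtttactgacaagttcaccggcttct
Apoa5: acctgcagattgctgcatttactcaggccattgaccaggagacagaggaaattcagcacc
The bright Apob probe lies at chr12:8012697-8012756 on the plus strand and starts at base 4473 of the transcript. The dim one starts at base 955, and its 60 bases are spread over 1615 bases of genome at chr12:7992933-7994547, as for a probe that crosses an intron. The Apoa1 probe lies at chr9:46037921-46037980 on the plus strand, the Apoc3 probe at chr9:46041353-46041412 on the minus strand and the Apoa5 probe at chr9:46078579-46078638 on the plus strand. Their GC contents were 43.3% and 45% for Apob, 55% for Apoa1, 46.7% for Apoc3 and 50% for Apoa5.

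Apob, the gene of the obligate VLDL protein, was bright in every liver. Its bright probe gave processed signals of 443, 364 and 455 on the AAV-V arrays, 887, 1097 and 1329 on the AAV-GP73 arrays and 1047, 805 and 454 on the AAV-V HFD arrays. Before scaling the AAV-GP73 arrays were thus all above the AAV-V arrays. After scaling the means were 9.71 ± 0.10, 9.55 ± 0.15 and 9.05 ± 0.24 (scaled log2 signal, SD, n = 3), and the AAV-GP73 and AAV-V groups overlapped. The difference from AAV-V was -0.16 ± 0.25 (log2, SE) in AAV-GP73 (limma, adjusted p = 0.602) and -0.66 ± 0.25 in AAV-V HFD (adjusted p = 0.046), a 1.58-fold difference that stayed under the 2-fold threshold, and both turned positive, to 0.84 and 0.30, when arrays were scaled on all probes. In a tissue sample fewer cells of a type and less RNA per cell cannot be told apart. The probe reads a stretch that ApoB100 and ApoB48 messages share, so it says nothing of the editing that separates them.

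The dim Apob probe gave another picture. It was well above background on 0 of 3 AAV-V arrays, with signals of 3.04, 3.50 and 6.95. It was well above background on all AAV-GP73 arrays (41.8, 34.6 and 59.2) and on all AAV-V HFD arrays (14.6, 32.1 and 10.8). On the scale used here AAV-GP73 was at least 2.09-fold higher than AAV-V by this probe, taking the lowest detected signal of each AAV-V array as its bound (adjusted p of the fit = 0.00157). The bound was not taken under other scalings or with normexp. It would be lower with arrays scaled on the median of the 2667 probes, where the median of all tested genes fell from 0.59 to 0.48. In AAV-V HFD no bound above 1-fold could be given, and the fit called no difference (adjusted p = 0.218). With AAV-V below background, a size of the change or of the ratio between the 2 Apob probes could not be given.

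Mttp, the lipid-loading partner of ApoB, was near the detection limit. Its probe on a RefSeq transcript was well above background on 0 of 3 AAV-V, 1 of 3 AAV-GP73 and 1 of 3 AAV-V HFD arrays and was not tested. The brighter probe, designed on an Ensembl transcript, gave 21.9, 2.19 and 5.76 in AAV-V, of which the first was well above background, 10.9, 21.3 and 17.0 in AAV-GP73 and 17.6, 26.0 and 19.7 with AAV-V HFD. The groups overlapped. Differences from AAV-V were -0.25 ± 0.64 (adjusted p = 0.740) and 0.22 ± 0.64 (adjusted p = 0.782), with errors larger than the differences.

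**Figure D1:**
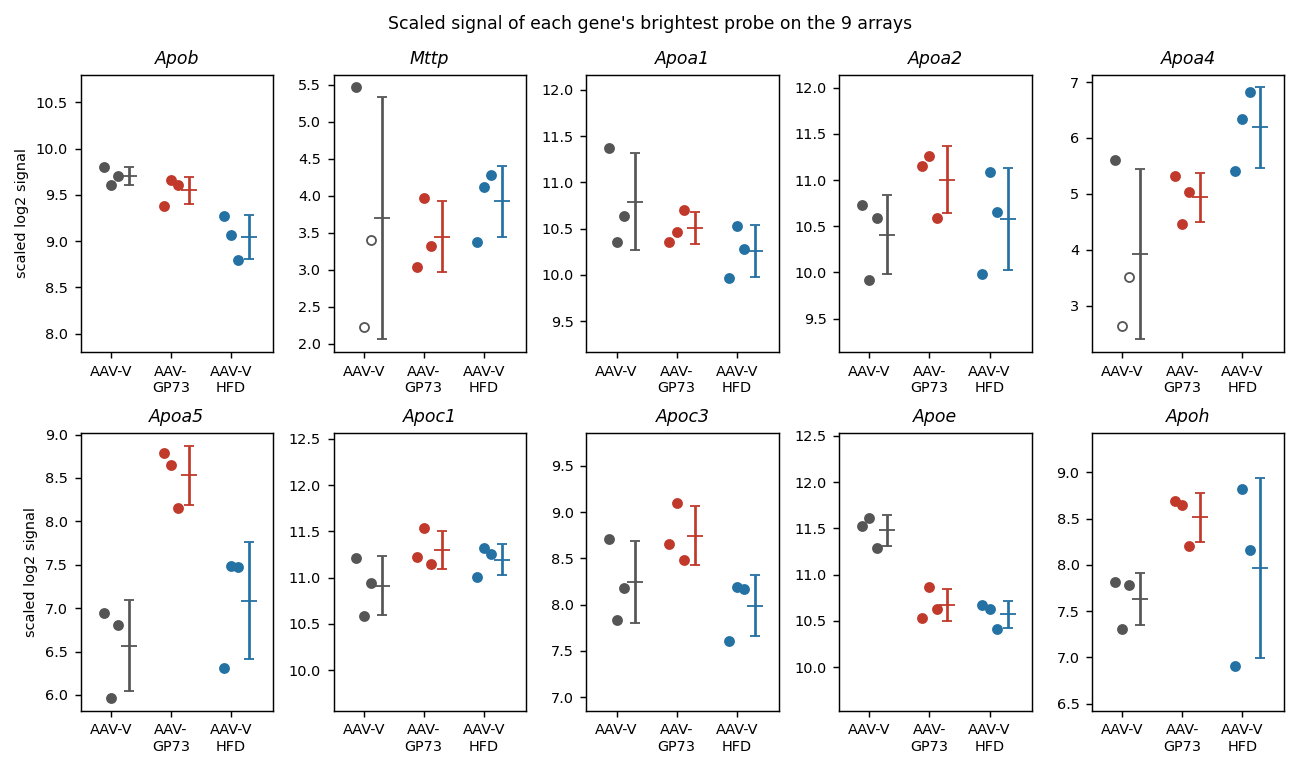
Scaled log2 signal of the brightest probe of each of the 10 genes (vertical axis, whose range differs by panel) on the 3 arrays of each group. Filled points were well above background, open points were not, and the bar beside them is the mean ± SD. The AAV-GP73 points of Apoa5 lie above all 6 other arrays, from 8.15 to 8.79, while the AAV-V and AAV-GP73 points of Apob overlap on this scale.

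Apoa1, Apoc3, Apoa4 and Apoa5 lie together on chromosome 9, and the 2 largest differences among the 10 genes came from this cluster. ApoA-V, a low-abundance liver protein, lowers plasma triglyceride by aiding lipoprotein lipase, and in hepatocytes it is also found on lipid droplets. The brightest Apoa5 probe gave 60.9, 29.1 and 60.9 with AAV-V, 590, 547 and 482 with AAV-GP73 and 134, 269 and 180 with AAV-V HFD. All 3 AAV-GP73 arrays were above all 6 others, before and after scaling. On the scaled log2 axis the means were 6.57 ± 0.53, 8.53 ± 0.34 and 7.09 ± 0.68. Apoa5 rose in AAV-GP73 against AAV-V by 1.96 ± 0.39 (log2, SE), or 3.90-fold (limma, adjusted p = 0.00119), which was 1.37 above the median of all tested genes. It was called higher under all 7 scalings, at 1.39 to 3.65, and with each array left out, at 1.66 to 2.15. In AAV-V HFD the difference from AAV-V was 0.52 ± 0.39 (adjusted p = 0.274) and the groups overlapped.

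The other Apoa5 probe, whose letters are given above, was dimmer and moved less in AAV-GP73. Its signals were 18.5, 17.3 and 19.1 in AAV-V, 81.6, 91.1 and 77.0 in AAV-GP73 and 34.0, 34.6 and 39.1 with AAV-V HFD. AAV-GP73 was again above both other groups, but the scaled difference from AAV-V was 0.65 ± 0.30 (adjusted p = 0.082) and was not called. The within-array ratio of the 2 Apoa5 probes differed by -1.32 (log2) between AAV-GP73 and AAV-V without overlap (exact two-sided permutation test, p = 0.1, the smallest that 3 against 3 arrays allow). The size of the Apoa5 difference therefore depended on the probe.

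Apoa4 encodes ApoA-IV, made by intestine and, in the mouse, also by liver, where it is known to go with triglyceride load. Its single probe gave 24.1, 2.90 and 6.25 in AAV-V, the last 2 not well above background, 53.2, 29.9 and 55.9 in AAV-GP73 and 71.6, 121 and 115 with AAV-V HFD. Apoa4 was called higher in AAV-V HFD than in AAV-V, with a fitted difference of 2.27 ± 0.63 (adjusted p = 0.0109) that rests in part on the 2 undetected AAV-V signals. With both raised to the lowest detected signal of their array, an alternative added after the data were seen, the difference was 1.72, or 3.29-fold (limma, adjusted p = 0.00804). The groups overlapped, as 1 AAV-V array, at 5.60 on the scaled axis, stood above the lowest AAV-V HFD array. The call was lost with background correction by normexp, where the difference was 0.16. In AAV-GP73 the difference was 1.02 ± 0.63 (adjusted p = 0.174), which became -0.42 with normexp. It passed the test, at 1.86 (adjusted p = 0.00557), when the AAV-V array with the signal of 24.1 was left out.

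Apoc3, an inhibitor of lipoprotein lipase and of remnant uptake, and Apoa1, the main protein of high-density lipoprotein, completed the cluster and neither was called. The brightest Apoc3 probe had scaled means of 8.24 ± 0.45 in AAV-V, 8.74 ± 0.32 in AAV-GP73 and 7.99 ± 0.33 with AAV-V HFD. The difference from AAV-V was 0.50 ± 0.32 in AAV-GP73 (adjusted p = 0.183) and -0.25 ± 0.32 in AAV-V HFD (adjusted p = 0.521), the latter 0.70 with scaling on all probes. The Apoc3 probe printed above gave 0.04 ± 0.28 and -0.70 ± 0.28 (adjusted p = 0.904 and 0.054), and the remaining Apoc3 probe was well above background on no array. Apoa1 had scaled means of 10.79 ± 0.52, 10.51 ± 0.18 and 10.26 ± 0.28 with overlapping groups. Its differences of -0.28 ± 0.31 and -0.53 ± 0.31 (adjusted p = 0.441 and 0.168) turned to 0.71 and 0.42 with scaling on all probes. Within 1 cluster the differences in AAV-GP73 thus ran from -0.28 for Apoa1 to 1.96 for Apoa5.

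Apoe and Apoc1 lie side by side on chromosome 7. ApoE is the ligand by which remnants reach hepatic receptors, and it is made by hepatocytes and macrophages. The brightest Apoe probe gave 1468, 1462 and 1365 with AAV-V, 1966, 2530 and 2682 with AAV-GP73 and 2762, 2373 and 1382 with AAV-V HFD. After scaling, AAV-V stood above both other groups without overlap, at 11.48 ± 0.17 against 10.67 ± 0.17 and 10.57 ± 0.14. The differences were -0.81 ± 0.25 in AAV-GP73 (adjusted p = 0.016, 1.75-fold) and -0.91 ± 0.25 in AAV-V HFD (adjusted p = 0.011, 1.88-fold), below the 2-fold threshold, and they turned to 0.19 and 0.05 with scaling on all probes.

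The other Apoe probe pointed the other way. It gave 787, 533 and 796 with AAV-V, 3308, 4171 and 3181 with AAV-GP73 and 1509, 5584 and 1939 with AAV-V HFD, with scaled differences of 0.81 ± 0.44 (adjusted p = 0.128) and 0.42 ± 0.44 (adjusted p = 0.441). The within-array ratio of the 2 Apoe probes differed by 1.62 (log2) between AAV-GP73 and AAV-V without overlap (exact permutation p = 0.1). In the array's design the brighter probe spans 50 bases of genome for its 60 letters (chr7:20281578-20281627, minus strand), whereas the other spans 60 (chr7:20281732-20281791). No direction for Apoe could be taken from these probes.

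Apoc1, whose product slows lipoprotein lipase and remnant uptake, had scaled means of 10.91 ± 0.32, 11.30 ± 0.21 and 11.19 ± 0.17. Its differences of 0.39 ± 0.27 and 0.28 ± 0.27 were not called (adjusted p = 0.227 and 0.400). Apoa2, the second protein of high-density lipoprotein, had 2 probes that moved together. They differed from AAV-V by 0.59 ± 0.35 and 0.62 ± 0.35 in AAV-GP73 (adjusted p = 0.161 and 0.133) and by 0.17 ± 0.35 and 0.08 ± 0.35 in AAV-V HFD (adjusted p = 0.708 and 0.860). Apoh had scaled means of 7.63 ± 0.29, 8.51 ± 0.27 and 7.96 ± 0.97. AAV-GP73 and AAV-V did not overlap for Apoh, at a difference of 0.88 ± 0.42 (adjusted p = 0.086), and the 3 AAV-V HFD arrays ranged from 6.91 to 8.82.

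**Figure D2:**
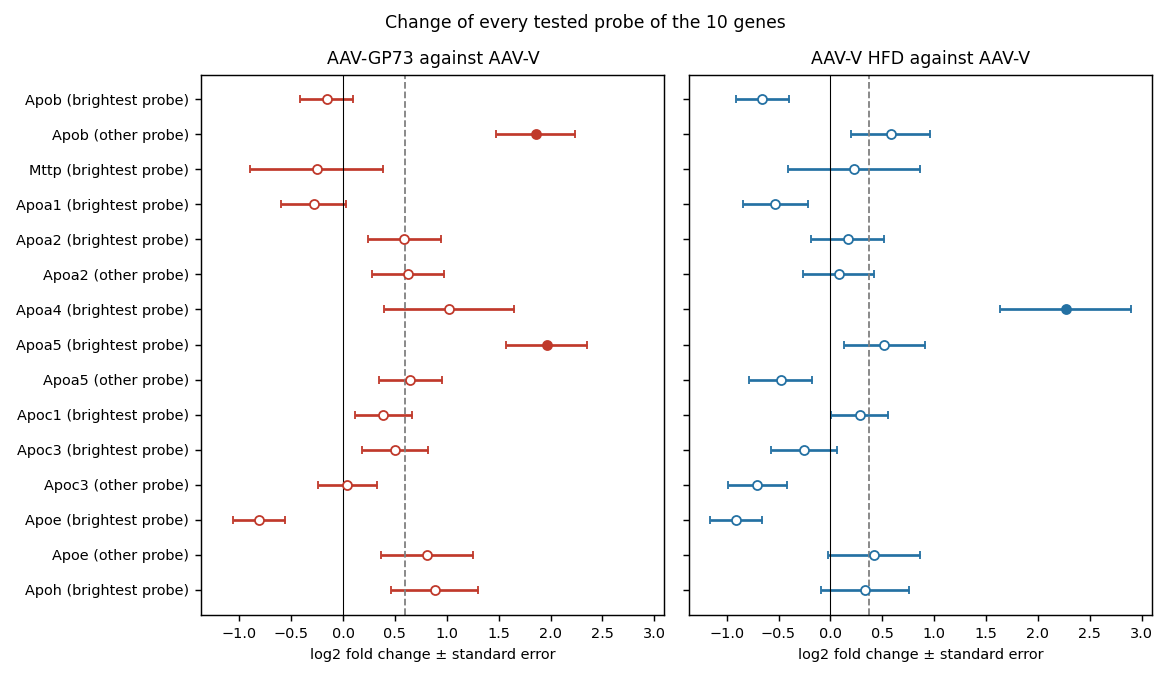
Difference from AAV-V of each of the 15 tested probes of the 10 genes (horizontal axis, log2 fold change ± standard error from limma), in AAV-GP73 (left) and AAV-V HFD (right). Filled points passed both thresholds (a 2-fold change, adjusted p under 0.05), and the dashed line is the median of all tested genes, 0.59 and 0.37. The 2 probes of Apob and of Apoe fall on opposite sides of 0 in both panels, and those of Apoa5 do in AAV-V HFD. The dim Apob probe was undetected in AAV-V, and Apoa4 was detected there on 1 of 3 arrays. With scaling on all probes the brightest probes of Apob and Apoe move to the right of 0.

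Counted by the brightest probe, 1 of the 10 genes was higher in AAV-GP73 against AAV-V (Apoa5) and 0 were lower, beside 33.2% of all tested genes called higher and 19.4% lower (52.5% in either direction). In AAV-V HFD against AAV-V 1 of 10 was higher (Apoa4) and 0 were lower, beside 24.8% and 18.2% of all tested genes (43% in either direction). The shares of the 10 genes called were below those of all tested genes. Their median difference was 0.45 in AAV-GP73, from -0.81 to 1.96, and 0.20 in AAV-V HFD, from -0.91 to 2.27. For all tested genes the medians were 0.59 and 0.37. The 2427 genes detected on all 9 arrays, as 8 of the 10 were, had medians of -0.19 and -0.35, below those of the 10 genes. Tested alone, 16.1% and 11.6% of these 2427 genes were called higher, and 791 and 735 of them lower. The groups did not overlap for 3 of the 10 genes in the first comparison and for 2 in the second. The share of all tested genes without overlap was not taken, so nothing can be read from these counts. Both comparisons share the AAV-V arrays.

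These counts followed the scaling. With all probes as the base, 6 of the 10 genes were called higher in AAV-GP73 (Apoa2, Apoa4, Apoa5, Apoc1, Apoc3 and Apoh) and 5 in AAV-V HFD (the same without Apoc3), beside 64.6% and 56.9% of all tested genes. With the spike-in controls as the base they were 8 and 6, beside 76.1% and 65.6%. On the deposited log2 values, whose columns share 1 minimum and 1 maximum as after quantile normalization, 2 genes (Apoa2 and Apoa5) were higher in AAV-GP73 and 1 (Apoa4) in AAV-V HFD, beside 38.1% and 33.2%. Apoa5 in AAV-GP73 was called under each of the 7 scalings, and no gene of the 10 was called lower under any of them.

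**Figure D3:**
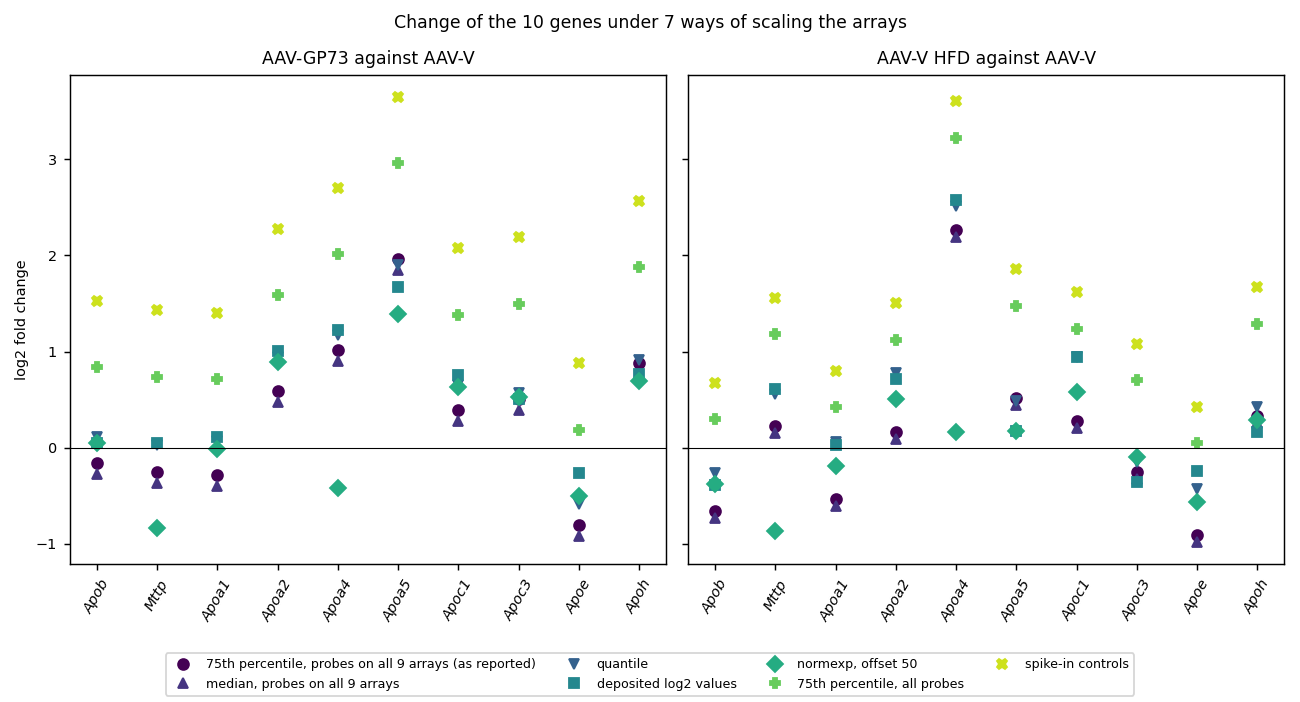
Log2 fold change from AAV-V of the brightest probe of each of the 10 genes under 7 ways of scaling the arrays (symbols), in AAV-GP73 (left) and AAV-V HFD (right). Scaling on all probes or on spike-in controls lifts the whole set, so that Apob in AAV-GP73 runs from -0.27 to 1.53, while Apoa5 in AAV-GP73 stays positive throughout, at 1.39 to 3.65.

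To compare without any scaling between arrays, the signal of each gene was divided by that of the bright Apob probe on the same array. Relative to Apob, Apoa5 was 0.137, 0.0798 and 0.134 in AAV-V and 0.666, 0.499 and 0.363 in AAV-GP73, with no overlap. The difference was 2.12 ± 0.44 (log2, SE; limma, adjusted p = 0.00143) and Apoa5 was the 1 gene of 9 called higher, beside 38.5% of all tested genes higher and 18.2% lower. In AAV-V HFD the ratio was 0.128, 0.334 and 0.397, and 2 of 9 genes were called higher than in AAV-V relative to Apob, beside 48.7% of all tested genes higher and 5.94% lower. They were Apoa4, by 2.92 ± 0.63 (adjusted p = 0.00166) or, with the undetected AAV-V signals raised to their arrays' lowest detected signal, by 2.37 (adjusted p = 0.00205), and Apoa5, by 1.18 ± 0.44 (adjusted p = 0.033). The Apoa5 call in AAV-V HFD was lost without AAV-V replicate 2, AAV-V replicate 3, AAV-V HFD replicate 2 or AAV-V HFD replicate 3, at 0.86 to 1.29, and its groups overlapped. By the other Apoa5 probe neither difference relative to the bright Apob probe was called. It stood at 0.80 ± 0.38 in AAV-GP73 without overlap (limma, adjusted p = 0.076) and at 0.18 ± 0.38 in AAV-V HFD (adjusted p = 0.697). Apoc1 relative to Apob differed by 0.94 ± 0.31 in AAV-V HFD without overlap (adjusted p = 0.019), just under 2-fold. The median difference over the 9 genes was 0.66 in AAV-GP73 and 0.88 with AAV-V HFD, beside 0.75 and 1.03 over all tested genes.

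**Figure D4:**
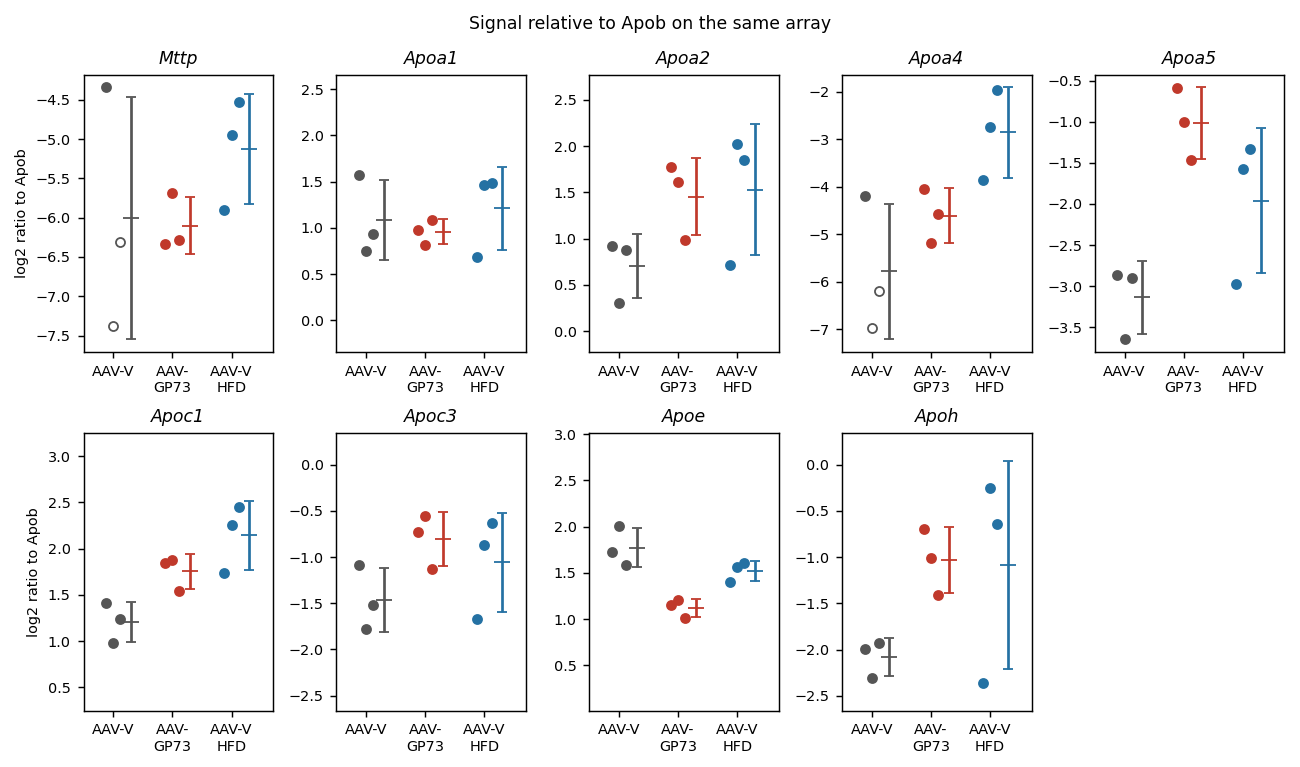
Log2 ratio of each gene's brightest probe to the bright Apob probe on the same array (vertical axis), 3 arrays a group, with mean ± SD beside them. Open points were not well above background. The Apoa5 ratios of AAV-GP73 lie above all AAV-V ratios, and those of Apoa4 in AAV-V HFD lie above all AAV-V ratios.

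The 2 fatty-liver models were also set against each other, with the slide as a further difference between them. None of the 10 genes was called between AAV-GP73 and AAV-V HFD by limma, beside 1.98% of all tested genes higher and 0.608% lower (2.59% in either direction). At an unadjusted p under 0.05 there were 912 genes in all. The largest difference was Apoa5, at 1.44 ± 0.39 higher in AAV-GP73 with no overlap (adjusted p = 0.072), and its other probe gave 1.13 ± 0.30 (adjusted p = 0.072). Apoa5 was called with spike-in scaling, with normexp, with the test restricted to probes detected on all 9 arrays, with undetected signals raised and with a trended robust fit. Apoa4 was at -1.25 ± 0.63 (adjusted p = 0.359) with AAV-GP73 below AAV-V HFD on every array. The groups also did not overlap for Apob, at 0.50 ± 0.25 (adjusted p = 0.364), or for Apoc3, at 0.76 ± 0.32 (adjusted p = 0.259). The share of all tested genes without overlap was not taken here either, so nothing can be read from the lack of overlap. Relative to Apob 0 of 9 genes were called, beside 0.486% of all tested genes higher and 1.27% lower.

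Genes that act with these 10 were read from lists. Of 22 genes of VLDL assembly and export 12 were tested, and 3 were higher (Surf4, Plin2 and Smlr1) and 1 lower (Hsp90b1) in each of AAV-GP73 and AAV-V HFD against AAV-V. All 3 higher genes were detected on no AAV-V array and entered the test through the other groups, so that this count supports nothing. For Surf4, a cargo receptor that carries lipoproteins out of the endoplasmic reticulum, no bound above 1-fold could be given. With normexp Surf4 stood at -0.65 and -0.74 and Smlr1 at -0.50 and -0.64. Hsp90b1, an endoplasmic reticulum chaperone, fell by 1.16 ± 0.31 in AAV-GP73 (adjusted p = 0.00739) and by 1.08 ± 0.31 in AAV-V HFD (adjusted p = 0.0138). With spike-in scaling its sign turned, at 0.52 and 0.26, below the medians of all tested genes of 2.28 and 1.70. Plin2, the coat protein of hepatic lipid droplets, was well above background on 0 of 3 AAV-V arrays and on all others, and was at least 9.78-fold higher in AAV-GP73 than in AAV-V (adjusted p = 6.35e-05). In AAV-V HFD the bound was 1.78-fold. With normexp neither Plin2 difference was called, at 0.94 in AAV-GP73 and, with the direction turned, -0.34 in AAV-V HFD. The medians of all tested genes were then -0.58 and -0.73. It was also 2.46 ± 0.52 (log2) higher in AAV-GP73 than in AAV-V HFD (adjusted p = 0.0295). The median of this list was 0.30 in AAV-GP73 and 0.26 with AAV-V HFD.

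Of the 3 genes for editing of Apob mRNA 2 were tested. A1cf, the RNA-binding partner of the editing enzyme, rose in AAV-GP73 by 1.18 ± 0.29 (adjusted p = 0.00457) and was detected on all 9 arrays. It was called under 5 of the 7 scalings, the call being lost on the deposited log2 values and with normexp, where the difference was 0.50. In AAV-V HFD A1cf differed by 0.41 ± 0.29 (adjusted p = 0.255). Apobec1, the deaminase itself, was detected on no AAV-V array and was not called. Of 14 further apolipoprotein genes 8 were tested, with 3 higher in AAV-GP73 (Apol9b, Apoo and Apon), 2 in AAV-V HFD (Apol9b and Apon) and 0 lower, and medians of 0.51 and 0.82. Among them Apon, without detection in AAV-V, stood at least 2.54-fold higher with AAV-GP73 (limma, adjusted p = 0.00030). With normexp its sign turned, at -0.18, beside a median of -0.58 over all tested genes. Apoo, also without detection in AAV-V, turned to -0.62 with normexp.

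Of 12 genes of plasma lipoprotein remodelling 7 were tested, of which AAV-GP73 had 1 higher (Angptl4) and 1 lower and AAV-V HFD 1 higher (Saa4, undetected in AAV-V and at -0.53 with normexp) and 0 lower, with medians of 0.37 and 0.02. Angptl8, listed on the array under its older name Gm6484, encodes an inhibitor of lipoprotein lipase induced by feeding. It fell by 1.18 ± 0.44 in AAV-GP73 (adjusted p = 0.0358). With spike-in scaling its sign turned, at 0.51, below the median of all tested genes of 2.28. Of 12 lipoprotein receptor and efflux genes 3 were tested, and in each comparison Lrp8 was lower and 1 gene was higher, Lrp1 in AAV-GP73 and Abcg5 in AAV-V HFD. Both of these were detected on no AAV-V array and turned with normexp, to -0.50 and -0.74, beside medians of -0.58 and -0.73 over all tested genes. Lrp8, the ApoE receptor 2, fell by 1.41 ± 0.33 in AAV-GP73 and 1.13 ± 0.33 with AAV-V HFD (adjusted p = 0.00342 and 0.0143). With spike-in scaling it stood at 0.28 and 0.21, below the medians of all tested genes of 2.28 and 1.70.

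Of 16 transcriptional regulators of apolipoprotein genes 11 were tested, and 8 were higher in AAV-GP73 and 7 with AAV-V HFD, with 0 lower and medians of 1.53 and 1.40. In AAV-V 9 of the 11 were not detected on any array, so they entered the test through the other groups, and the count supports nothing. Hnf4a, the nuclear receptor that drives many hepatocyte genes and also a hepatocyte marker here, was detected on all 9 arrays. It had scaled means of 5.59 ± 0.50 in AAV-V, 8.04 ± 0.35 in AAV-GP73 and 6.99 ± 0.29 with AAV-V HFD. Hnf4a rose by 2.46 ± 0.33 in AAV-GP73 (adjusted p = 0.000149), called under all 7 scalings, and by 1.40 ± 0.33 in AAV-V HFD (adjusted p = 0.00460), called under 6 of them. Creb3l3, a liver transcription factor known to act on Apoa4, was at least 3.76-fold higher in AAV-GP73 than in AAV-V (fitted difference with normexp 0.27, not called). For Ppara, Nr1h3 (LXR alpha) and Nr1h4 (FXR) the bounds were 2.16-fold, 2.01-fold and 2.01-fold. With normexp all 3 differences turned, to -0.25, -0.34 and -0.23, beside a median of -0.58 over all tested genes. In AAV-V HFD Nr1h3 was at least 2.12-fold higher, which turned to -0.35 with normexp, beside a median of -0.73.

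**Figure D5:**
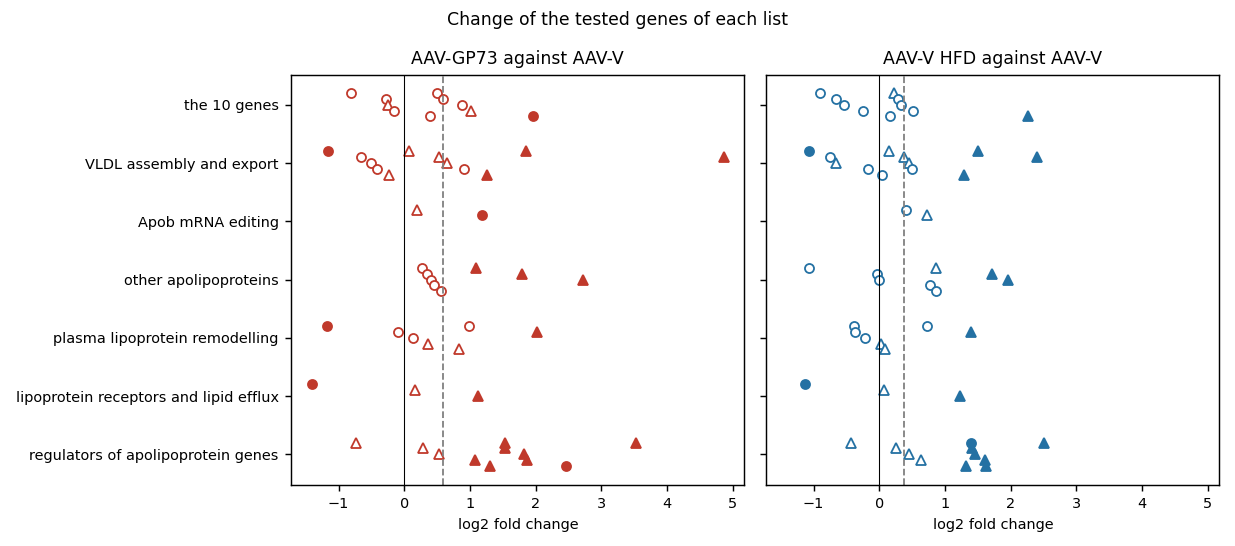
Log2 fold change from AAV-V (horizontal axis) of the brightest probe of each tested gene, for the 10 genes and 6 lists of related genes (rows), in AAV-GP73 (left) and AAV-V HFD (right). Circles were detected on all 3 AAV-V arrays and triangles on fewer, filled symbols were called, and the dashed line is the median of all tested genes. Of 11 regulators 8 and 7 were called higher, and 9 of these 11 were not detected on any AAV-V array.

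Markers of cell types were read beside these results. The 10 hepatocyte markers on the array were detected on all AAV-V and AAV-GP73 arrays, and their summed scaled signal ranged from 15294 to 25051 with AAV-V, 15760 to 22433 with AAV-GP73 and 9695 to 16956 with AAV-V HFD. Of the 10 markers 4 were higher in AAV-GP73 than in AAV-V (Cyp2e1, Hnf4a, Tat and Asgr1) and 1 was lower (Cps1), with a median of 0.62. Beside these stood 33.2% of all tested genes higher and 19.4% lower. Asgr1 was called under 3 of the 7 scalings, at 0.020 with normexp, and Tat under 6. Cps1 was called under 4 and turned to 0.096 with spike-in scaling, below the median of all tested genes of 2.28. In AAV-V HFD 2 were higher (Cyp2e1 and Hnf4a) and 1 lower (Cps1), with a median of 0.12, beside 24.8% and 18.2% of all tested genes. Albumin differed by -0.16 ± 0.30 in AAV-GP73 (adjusted p = 0.657) and -0.76 ± 0.30 in AAV-V HFD (adjusted p = 0.051), close to the values for Apob, although with scaling on spike-in controls they were 1.52 and 0.57. Of 4 erythroid markers tested 3 were higher in AAV-GP73 than in AAV-V (Hba-a1, Hba-a2 and Hbb-b2) and 2 were higher than in AAV-V HFD (Hba-a1 and Hba-a2, near-identical copies). Hbb-b2 turned with normexp, from 2.27 to -0.40, beside a median of -0.58 over all tested genes. Their summed signal was 375 to 918 with AAV-V, 3312 to 16640 with AAV-GP73 and 616 to 1085 with AAV-V HFD, with Hbb-b1 and Hbb-b2 undetected in AAV-V. Their part in the Apoa5 result was not tested. Of 7 macrophage markers on the array, a cell type that makes ApoE, 1 was detected on all AAV-V arrays and 4 on all arrays of AAV-GP73 and of AAV-V HFD. Their sums were 102 to 124, 109 to 167 and 119 to 215. Of 7 enterocyte markers Fabp2 was detected, in AAV-GP73 and AAV-V HFD, at least 3.50-fold and 6.61-fold higher there than in AAV-V. With normexp neither Fabp2 difference was called, at 0.25 and 0.74 (log2). Vil1, Sis, Lct, Alpi, Cdh17 and Rbp2 were detected on no array. Sums over the 7 enterocyte markers were 24.9 to 29.7 in AAV-V, 34.5 to 82.4 in AAV-GP73 and 86.9 to 135 with AAV-V HFD. Of 2 stellate cell and fibroblast markers tested Dcn was higher in AAV-GP73, at 1.20 ± 0.27, and Des was lower in AAV-GP73 and AAV-V HFD, at -2.14 ± 0.52 and -2.31 ± 0.52. The endothelial marker Clec4g and the Kupffer cell marker Clec4f, both undetected in AAV-V, were called higher in AAV-GP73. With normexp they turned, to -0.39 and -0.56, beside a median of -0.58 over all tested genes. The part of these markers in the results was not tested. No lymphocyte, cholangiocyte or adipocyte marker was tested.

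Among 2427 genes with a brightest probe detected on all 9 arrays, those nearest to Apob in centred log2 signal were B230219D22Rik, Ttc38, Zfp638, Znhit3 and Ppig, with mean absolute differences of 0.10 to 0.14 over the 9 arrays. Each was lowest in AAV-V HFD, as Apob was, which follows from choosing them by nearness to Apob on these same arrays. Ttc38, for example, had means of 11.64, 11.55 and 11.18 in AAV-V, AAV-GP73 and AAV-V HFD.

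Promoter sequence was available for 8 of the 10 genes, as 12 RefSeq start sites on GRCm38.p6, and the 250 bases before each start were searched on both strands for AGGTCA, a nuclear receptor half-site, CAAAGTCCA, an HNF4A site, and TATAAA. The windows of Apob and Apoa5 are shown, as the structural gene and the gene called in AAV-GP73, with matches in capitals. These coordinates are of another build than the probe positions and cannot be set against them.
Apob, chr12:7977427-7977676, plus strand: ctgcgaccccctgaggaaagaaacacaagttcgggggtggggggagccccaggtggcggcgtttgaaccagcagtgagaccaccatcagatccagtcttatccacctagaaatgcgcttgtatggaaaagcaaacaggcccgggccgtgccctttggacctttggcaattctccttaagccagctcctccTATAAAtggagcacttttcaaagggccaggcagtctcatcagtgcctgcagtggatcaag
Apoa5, chr9:46268358-46268607, plus strand: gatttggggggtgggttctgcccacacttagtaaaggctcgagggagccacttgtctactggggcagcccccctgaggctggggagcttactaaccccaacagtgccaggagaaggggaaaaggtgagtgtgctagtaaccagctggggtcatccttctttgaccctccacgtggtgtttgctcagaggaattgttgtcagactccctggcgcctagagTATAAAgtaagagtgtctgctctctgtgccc
Both hold 1 TATAAA, starting 60 bases before the annotated start in Apob and 31 in Apoa5. TATAAA was in 12.4% of all 32851 windows of this length, AGGTCA in 14% and CAAAGTCCA in 0.384%. Windows of Apoa2 and Apoh each held 1 AGGTCA, and no window of the 8 genes held CAAAGTCCA.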

How the data were processed

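Liver RNA of 9 samples was measured on 1-colour Agilent mouse arrays. The deposited scanner files give processed signal intensity per spot, after background subtraction by Feature Extraction (12.0.3.1 per the file headers, 10.7 per the submitters' processing notes). The deposited matrix holds log2 values of the same arrays made by the authors, with limma named in the notes. Groups came from the labels. Flagged spots were left out, the 59305 non-control spots were averaged to 56605 probe names, and log2 intensity was shifted per array as described. The 6591 tested probes were fitted with limma 3.58.1 (R 4.3.3) over all 9 arrays, with Benjamini-Hochberg adjustment over all probes tested. A gene was called at a 2-fold change and an adjusted p under 0.05, by its brightest probe. The script was tested on simulated data. The number of arrays limits precision, and no spot was saturated.

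The 10 genes and all lists were chosen with earlier results of these data known. Named were all 10 genes, the 5 genes nearest Apob and, per list and comparison, up to 5 called genes with the largest change, detected throughout both groups or at least 2-fold above a group without detection. Other genes behind small counts were named after their values were seen. Alternatives covered scaling, background correction (normexp, offset 50), filter, model, the methods' t-test, thresholds and left-out arrays. Raising undetected signals to the lowest detected signal of their array was added after seeing the data. Same-numbered arrays had deviations that correlated at -0.11 to 0.17, over 0.1 in 2 of 9 pairs, so numbers were not treated as pairs.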

Additional observations from a re-analysis of the deposited data

How the results depend on the processing

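Of the 10 genes, Apoa5, by its brightest probe, kept its call in AAV-GP73 against AAV-V under every alternative that gave a value. Scaling moved most other values. Genes called in all were 3027, 2476 and 149 in AAV-GP73 against AAV-V, AAV-V HFD against AAV-V and AAV-GP73 against AAV-V HFD. They became 850, 888 and 42 with normexp, 29761, 28135 and 58 with no filter on dim probes, and 1181, 1017 and 65 with probes detected on all 9 arrays, where fewer genes were tested. Of calls in AAV-GP73 against AAV-V 63.1% were higher, against 90.3% with scaling on all probes, 98.1% with spike-in scaling, 16.2% with normexp, 6.75% with no filter, 33.0% with probes detected on all arrays and 36.5% with undetected signals raised to the lowest detected signal of their array, an alternative chosen after seeing the data. For AAV-V HFD these were 57.7%, 94.7%, 98.1%, 8.22%, 5.36%, 27.7% and 25.6%, and 69.2% with quantile normalization. In AAV-GP73 against AAV-V HFD 76.5% were higher, against 95.1%, 88.2% and 64.6% with spike-in scaling, the deposited values and probes detected on all arrays. Spike-in scaling gave 3852 genes in AAV-V HFD and 326 in AAV-GP73 against AAV-V HFD, quantile normalization 35 and the deposited values 17 in the latter. The methods' t-test gave 328 there without adjustment and 12 adjusted, and 1532 adjusted in AAV-V HFD. Its other counts were 2753 and 2419 in AAV-GP73 and 2148 unadjusted in AAV-V HFD.

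Of the 10 genes, the number called in AAV-GP73 and AAV-V HFD was 6 and 5 with all probes (64.6% and 56.9% of all tested genes being higher), 8 and 6 with spike-ins (76.1% and 65.6%), and 2 and 1 with the deposited values (38.1% and 33.2%). With no fold threshold or a 1.5-fold one it was 2 and 3, of which 1 and 2 were lower (Apoe and, in AAV-V HFD, also Apob). Of all 5761 tested genes 39.8% and 32.2% were then higher, and 1239 and 1250 lower. In AAV-V HFD the number called of the 10 genes was 0 with normexp and with the t-test, adjusted or not. With probes detected on all arrays it was 0 as well, but Apoa4 and Mttp were then not tested. In AAV-GP73 against AAV-V HFD it was 1 with spike-ins, normexp, probes detected on all arrays, undetected signals raised, the trended robust fit and the unadjusted t-test. Relative to Alb in place of Apob, 3, 4 and 1 of the 9 other genes were called in the 3 comparisons. Relative to the median of the 10 genes 2 and 1 were called in the first 2. The share of all tested genes called was not taken for these 2 references. Relative to Apob with normexp 0 were called in AAV-V HFD.

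Directions turned as follows. Scaling on all probes or on spike-ins moves every gene of a comparison by the same amount, so these turns are not particular to single genes. The cause of the other turns was not tested. In AAV-GP73, scaling on all probes gave 0.84 for Apob, 0.74 for Mttp, 0.71 for Apoa1 and 0.19 for Apoe, and spike-ins 1.53, 1.43, 1.40 and 0.88. In AAV-V HFD they gave 0.30 and 0.68 for Apob, 0.42 and 0.80 for Apoa1, 0.70 and 1.08 for Apoc3 and 0.045 and 0.43 for Apoe. Quantile normalization gave 0.11 for Apob, 0.028 for Mttp and 0.067 for Apoa1 in AAV-GP73 and 0.063 for Apoa1 in AAV-V HFD, and the deposited values 0.045, 0.051, 0.11 and 0.033. In AAV-GP73 against AAV-V HFD these 2 gave -0.29 and -0.18 for Apoc1 and -0.15 and -0.021 for Apoe. Normexp gave 0.052 for Apob and -0.42 for Apoa4 in AAV-GP73, -0.86 for Mttp in AAV-V HFD (-0.50 with undetected signals raised) and 0.027 for Mttp in AAV-GP73 against AAV-V HFD. Relative to Apob it gave -0.47 for Apoa4 in AAV-GP73 and -0.48 for Mttp in AAV-V HFD. Relative to the median of the 10 genes Apoa1 was -0.18 in AAV-V HFD.

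With 1 array left out, 1 to 2 of the 10 genes were called in AAV-GP73 and 1 to 2 in AAV-V HFD, the second being Apoa4 without AAV-V replicate 1 and Apoe without AAV-V replicate 3. In AAV-GP73 against AAV-V HFD 26 to 132 genes were called in all, 70, 41 and 26 without AAV-GP73 replicates 1, 2 and 3 and 74 without AAV-V HFD replicate 1. Mttp ran from -0.99 to 0.63 in AAV-GP73 and -0.51 to 1.11 in AAV-V HFD, Apoa1 from -0.50 to 0.0071 in AAV-GP73, and Apoa2 and Apoh from -0.089 to 0.46 and -0.094 to 0.86 in AAV-V HFD. Apoc1 ran from -0.0083 to 0.18 in AAV-GP73 against AAV-V HFD. Relative to Apob, 1 to 2 genes were called in AAV-GP73 and 1 to 5 in AAV-V HFD, Mttp ran from -0.78 to 0.74 and Apoa1 from -0.29 to 0.12 in AAV-GP73, and Apoa1 from -0.042 to 0.39 in AAV-V HFD. Without AAV-V replicate 1 or AAV-V HFD replicate 1 they were 4 and 5. With the replicate number as a block (replicate block) 3025, 2484 and 103 genes and 1, 1 and 0 of the 10 genes were called, and it changed no call of the 10. Apoa4 and Mttp in AAV-V lay near background, which limits their differences from it.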
